A study of Mus musculus with 59 samples.

Results

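The 6 libraries described here are H3K27me3 chromatin immunoprecipitation libraries of mouse hindbrain neurospheres, 3 that express the histone mutant H3.3 K27M and 3 that express a tagged wild-type H3.3, out of 59 samples in the series. They were chosen by their labels. The files hold, for each library, the stretches of the genome that the authors called enriched, termed islands, with the number of reads in each. Islands of the 19 autosomes were kept, and islands of any of the 6 libraries that shared at least 1 bp were merged into 21066 regions.

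Neurospheres are floating cultures of neural stem and progenitor cells, here from e15.5 embryonic hindbrain, grown under neural precursor conditions. All 6 cultures carried Nestin-cre, a Cre recombinase driven by the Nestin promoter of neural progenitors. The K27M cultures carried H3f3aLSL-K27M-Tag/+, in which Cre removes a stop cassette so that tagged mutant histone is made from 1 H3f3a allele, and the control cultures (WT) carried H3f3aLSL-WT-Tag/+. Both groups kept the other H3f3a allele. Each group had 1 culture in each of experiments 1, 2 and 3. Whether each culture came from a different embryo is not stated, so a p-value here reflects only how far these cultures differ, which may be technical. The WT culture of experiment 3 was male and the other 5 were female.

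H3K27me3, trimethylation of lysine 27 on histone H3, is written by Polycomb repressive complex PRC2 and is found over silent developmental genes, often at CpG islands, and in broad weaker domains between them. PRC2 is known to start at nucleation sites and to spread from them. A lysine-to-methionine change at this residue is a recurrent mutation of diffuse midline gliomas and is known to lower H3K27me3 in most of the genome while some sites keep it. The comparison asks where in the hindbrain progenitor genome the mark was still called when K27M was present, and how long and how strong the remaining calls were.

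K27M libraries had fewer and narrower islands, which covered 0.264 of the length covered in WT libraries. The K27M libraries held 7614, 6020 and 6647 autosomal islands in experiments 1 to 3, and the WT libraries held 16008, 16262 and 19476. The K27M islands covered 45.2, 37.3 and 45.6 Mb, against 145, 150.0 and 191 Mb in WT. Every K27M library lay below every WT library in both measures, and the ratio of the group means was 0.392 for number. The median island was 3.93 ± 0.416 kb wide in K27M and 6.33 ± 0.115 kb in WT (SD, n = 3 each). Islands wider than 20 kb numbered 324 ± 35.3 in K27M and 1414 ± 326 in WT, while the widest island of each library spanned 231 to 239 kb for K27M, against 349.8 to 397.6 kb for WT. Each of these differences had p = 0.1 in a two-sided exact permutation test over libraries, the smallest p that 3 against 3 libraries can give.

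The reads inside islands fell less than the called length. K27M libraries had 5321143, 4376553 and 4786846 reads in autosomal islands, and WT libraries had 6199003, 6931048 and 9072944, a ratio of means of 0.652 (exact permutation p = 0.1). Pooled over islands, called stretches in K27M therefore held 113 ± 7.36 reads per kb, against 45.5 ± 2.47 in WT (SD, n = 3 each). The ratio was 2.49. The median island differed far less, at 28.5 ± 0.328 reads per kb in K27M and 26.0 ± 0.828 in WT, a ratio of 1.09. At the weak end the libraries overlapped: the 10th percentile of island density was 19.2 ± 0.179 reads per kb in K27M and 19.9 ± 0.582 in WT (exact permutation p = 0.2). In K27M, islands over 20 kb held 63.3 ± 0.562% of the island reads in 25.4 ± 0.364% of the called length, and in WT they held 53.1 ± 2.67% of the reads in 30.9 ± 2.57% of the length. Total sequencing depth is unknown here: the files list reads in islands only, and no scale factor for the Drosophila S2 chromatin that the labels say was added to each sample is used here. Absolute levels of the mark are therefore not compared, and the number of islands that pass a caller can also move with depth.

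**Figure D1:**
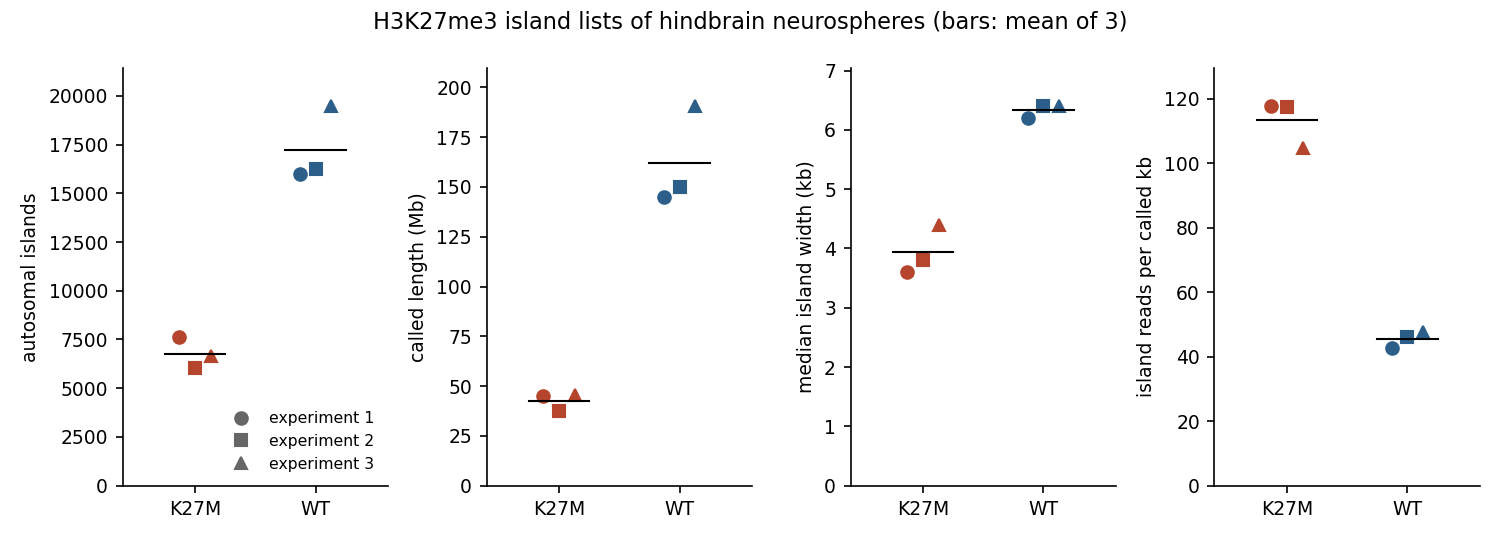
Autosomal islands, called length in Mb, median island width in kb and island reads per called kb in each of the 6 libraries (symbols mark the experiment, bars the mean of 3). The K27M points lie below all WT points in the first 3 panels, at 37.3 to 45.6 Mb against 145 to 191 Mb for called length, and above them in reads per kb.

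The smaller called length was seen on all 19 autosomes. On each of them the 3 K27M libraries lay below the 3 WT libraries, with a ratio of means between 0.216 on chromosome 16 and 0.300 on chromosome 6. Chromosome 16 had 0.877 ± 0.137 Mb called in K27M and 4.07 ± 0.830 Mb in WT, and chromosome 6 had 3.08 ± 0.318 Mb and 10.3 ± 1.36 Mb (SD, n = 3 each).

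Region by region, many WT calls had no counterpart in K27M, and few regions were called in K27M alone. Of the 21066 merged regions, 3864 (18.3%) had an island in all 3 WT libraries and in no K27M library, and 44 (0.209%) had the reverse. Regions called in all 3 WT libraries numbered 8781, of which 929 were also called in 1 K27M library, 723 in 2 and 3265 in all 3. A further 7284 regions were called in a single WT library and no K27M library, and these were narrow, with a median of 4.4 kb. The WT library of experiment 3 called 4374 regions that no other library called, against 1821 and 1089 in the other WT libraries and 32 to 189 in the K27M libraries.

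The WT-only regions were narrower and less dense than the regions called in all 6 libraries. Their median width was 10.4 kb and their median density 25.03 WT reads per kb, against 19 kb and 41.9 reads per kb for the other 3265. The WT-only region with the most reads lay on chromosome 4 (mm9, 45434601 to 45516400), where WT libraries had 1765, 1617 and 3871 island reads in 2 to 5 islands. All WT libraries of the hindbrain thus marked it and no K27M library of the hindbrain did, although all 3 K27M forebrain libraries called it. The next, on chromosome 9 (61986001 to 62043600), held 1553, 2047 and 3363 WT reads over 49.0, 52.2 and 57.6 kb. Those from 64054401 on chromosome 11, 124552601 on chromosome 8 and 35780001 on chromosome 5 followed, with 1775 ± 496, 1701 ± 231 and 1561 ± 272 WT reads (SD, n = 3). Reads that fell in these places in K27M libraries but outside any island are not counted, so no fold change is given.

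The 44 K27M-only regions were short and weak, with a median width of 4.2 kb and 25.7 K27M reads per kb. The one with the most reads lay on chromosome 6 (mm9, 38299601 to 38307000) and held 348, 220 and 242 reads in K27M islands of 7.4, 6.8 and 6.4 kb. It was also called in all 3 K27M forebrain libraries and 4 of 6 K27M tumours, and in none of the 5 WT tumours. The next began at 36980001 on chromosome 15, 85807401 on chromosome 6, 99318801 on chromosome 9 and 58622401 on chromosome 3, with 187 to 217 reads on average.

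The balance of WT-only and K27M-only regions rested on how far down each list was read. When every library was reduced to its 6020 islands with the most reads, 617 regions were WT-only and 391 were K27M-only. When every library was reduced to the same 37.3 Mb of its densest islands, a setting chosen after seeing the data, 5 regions were WT-only and 1298 were K27M-only. The excess of WT-only regions thus shrank at equal numbers and turned at equal length, where the narrower K27M islands are more numerous. Leaving out 1 library left between 3966 and 6140 WT-only and between 51 and 97 K27M-only regions. The count of WT-only regions was 6140 without the WT library of experiment 1. The count of K27M-only regions was 88 and 84 without the K27M libraries of experiments 2 and 3, 97 without the WT library of experiment 1, and 115 with experiments 1 and 2 alone.

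Whether a WT island was still called in K27M went with its read density. Each WT library was set against the K27M library of its own experiment and, as the background of the caller, against the other 2 WT libraries. No K27M island overlapped 66.0%, 72.6% and 74.8% of WT islands in experiments 1 to 3, and no WT island overlapped 11.5% to 37.2% in the 6 pairs of WT libraries. WT islands were ranked by reads per kb within their library and cut into 10 equal bins. In the lowest bin 2.52 ± 0.198% were found again in K27M, and in the top bin 94.6 ± 2.71% were (SD, n = 3 experiments). The same bins were found again in another WT library at 42.4 ± 14.0% and 99.3 ± 0.754% (SD, 6 pairs that share 3 libraries). The middle of the range separated the groups most: in bin 5, with a median of 25.2 reads per kb, 12.7 ± 3.55% of islands were found in K27M and 74.3 ± 11.5% in another WT library. The ranges of the K27M and WT pairs did not overlap in any of the 10 bins, although in the top bin they came close, at 91.7% to 97.1% and 97.9% to 99.8%.

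**Figure D2:**
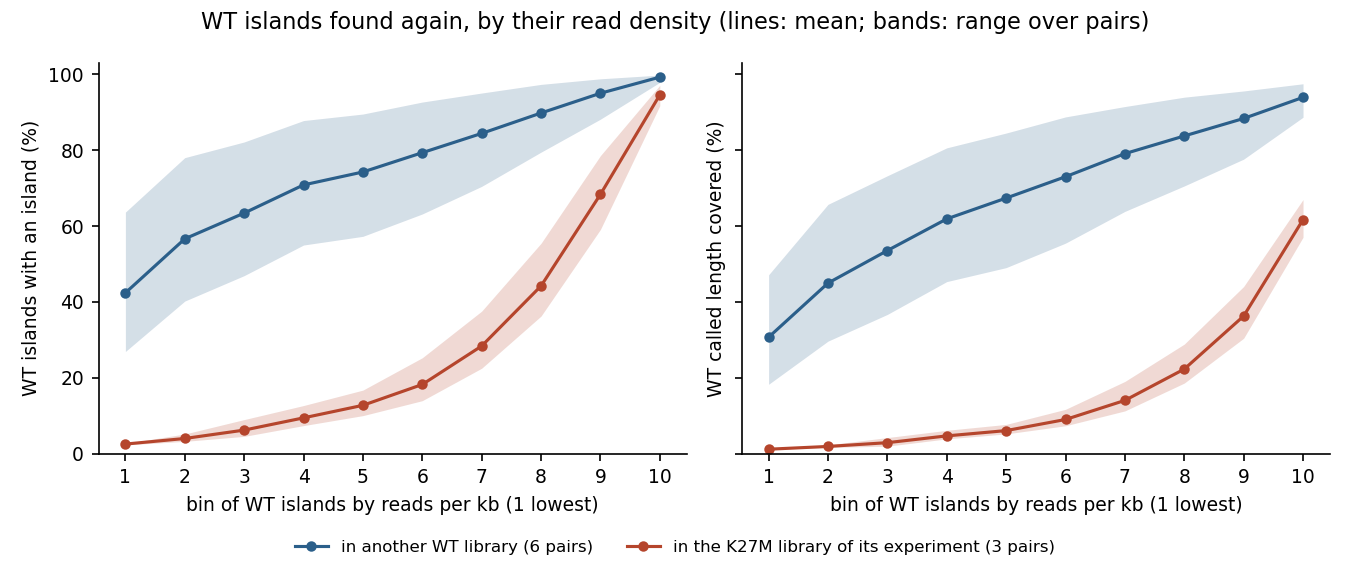
Share of WT islands that overlap an island of another library (left, %) and share of WT called length covered by it (right, %), by bin of WT read density (10 equal bins, sparsest at the left). Lines are means and bands the range over 3 K27M pairs and 6 WT pairs; the K27M line rises from 2.52% to 94.6% of islands, while the WT line starts at 42.4%.

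Width moved with density, so the islands were also split by both. In K27M, 13.2% of WT islands under 3 kb and 98.7% of those of 50 kb or more were found again (means of 3 experiments). Between WT libraries, 57.6% and 100% were (means of 6 pairs). Among WT islands 5 to 10 kb wide, the share found in K27M was 3.89 ± 1.04% in the lowest of 4 density classes and 73.1 ± 9.57% in the highest. Among those 20 to 50 kb wide it was 24.4 ± 7.32% in class 2 and 93.8 ± 3.22% in class 4 (SD, n = 3 each). Class 1 was counted in 2 libraries, with 25 and 26 islands of this width. Between WT libraries the 20 to 50 kb islands of class 2 were found again at 97.9 ± 3.06% (SD, 6 pairs). Those 5 to 10 kb wide were found again between WT libraries at 53.9 ± 14.5% in class 1 and 97.8 ± 2.84% in class 4 (SD, 6 pairs). At a like width the share kept in K27M thus rose with density in all 3 experiments. At 5 to 10 kb it also rose between WT libraries, from a higher start.

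Where K27M calls remained, they covered 49.2% to 54.0% of the WT length, and the widest WT islands were cut into more pieces. Another WT library covered 78.6% to 91.3% of the WT islands that it overlapped. The share of overlapped WT islands that held 2 or more K27M islands was 18.9%, 19.3% and 19.3%, against 10.3% to 17.2% between WT libraries. For WT islands of 10 to 50 kb that gap was not seen. In WT islands of 10 to 20 kb the share in pieces was 18.9% in K27M and 22.6% between WT libraries, and in those of 20 to 50 kb it was 43.6% and 42.4%, with overlapping ranges of the pairs in both. In WT islands of 50 kb or more, K27M calls made 3.29 pieces on average (3.11 to 3.39) and other WT libraries 2.07 (1.56 to 2.54), and the share in pieces was 79.1% and 59.5%.

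**Figure D3:**
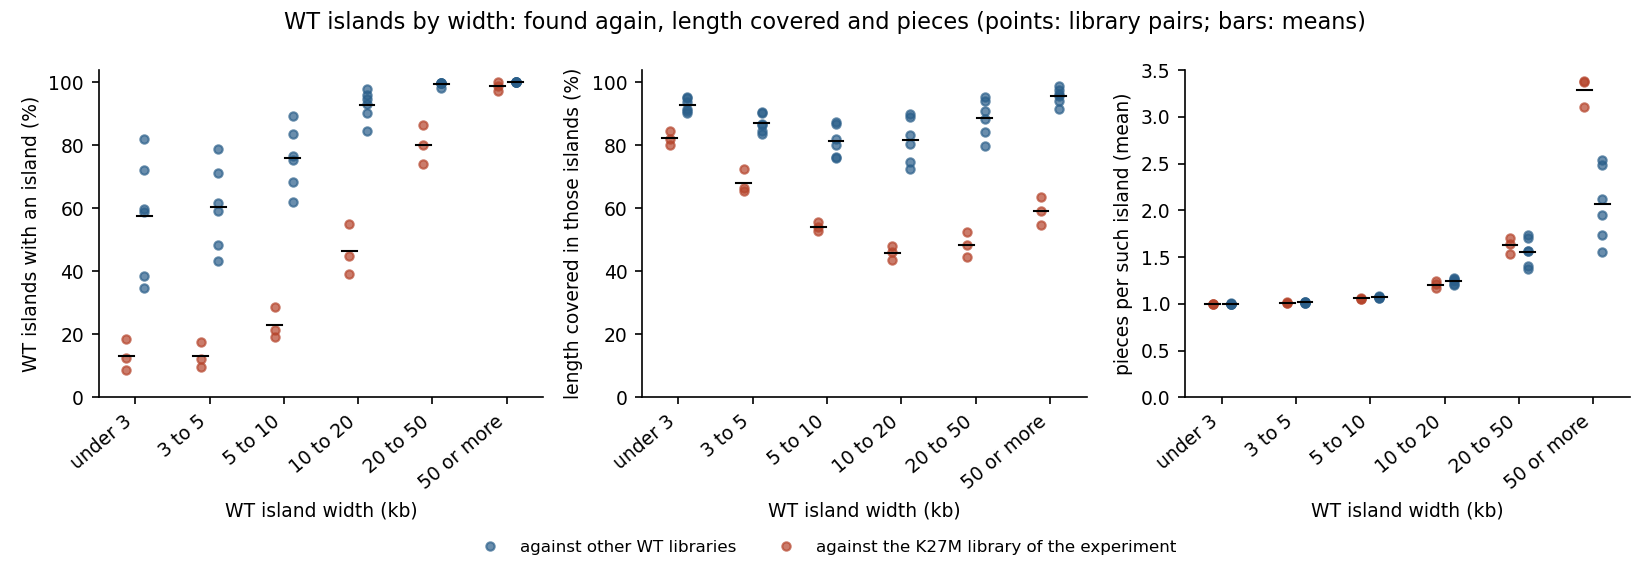
WT islands by width in kb: share found again in another library (left, %), share of their length covered where found (middle, %) and mean number of pieces where found (right). Points are library pairs and bars their means; in islands of 50 kb or more the 3 K27M pairs lie at 3.11 to 3.39 pieces and the 6 WT pairs at 1.56 to 2.54.

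Where a wide WT island held a single K27M island within its borders, most of the WT width was no longer called. Counted were WT islands of at least 10 kb whose only K27M island lay wholly inside, numbering 1485, 1431 and 1819. The K27M island was 5.8 ± 0.2 kb wide at the median and the WT island around it 16.3 ± 0.643 kb. K27M islands that ran past a WT border were left out. That choice lowers the share in which the K27M island reached an end of the WT island, 9.21 ± 1.70% (SD, n = 3). The median distance between its border and the WT border was 2.13 ± 0.306 kb on the shorter side and 7.13 ± 0.306 kb on the longer. These distances are set largely by the widths of the islands, and no position within the WT island is read from them. Where a WT island held several K27M pieces, the gaps between them had a median of 1.4 kb, and 62.0 ± 2.78% were 2 kb or shorter. Between 6.33% and 10.5% of K27M islands lay outside every WT island of their experiment.

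The 5 regions with the largest gain in pieces were all very wide. On chromosome 6 (mm9, 100237801 to 100522400) the K27M libraries had 22, 20 and 18 islands and the WT libraries 5, 4 and 3, and the called length was 193, 154 and 206 kb against 275, 281 and 283 kb. This 285 kb stretch thus stayed mostly called in K27M but broke up. On chromosome 9 (60089401 to 60398400) the K27M libraries had 17, 22 and 18 islands and the WT libraries 2, 4 and 3. The others of the 5 lay on chromosomes 8, 6 and 7, starting at 125139401, 99828201 and 103611001. The chromosome 6 region from 99828201, 350.0 kb wide, was the least reduced of the 5, with 337, 324 and 344 kb still called in K27M in 9, 15 and 5 islands.

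Some WT islands were kept whole. In 145 of the 3265 regions called in all 6 libraries, each library had a single island and the K27M mean length was at least 90% of the WT mean. The widest lay on chromosome 11 (mm9, 53902601 to 53949000), with 42.2, 41.8 and 46.2 kb called in K27M and 46, 46 and 46.2 kb in WT. The 4 next began at 22069401 on chromosome 13, 122484201 on chromosome 1, and 61638201 and 146901801 on chromosome 2, and were dense in both groups. On chromosome 2 at 61638201, for example, the K27M libraries had 540, 478 and 495 reads per kb and the WT libraries 202, 239 and 235. All 5 were also called, by at least 1 shared bp, in all 3 K27M forebrain libraries, all 6 K27M tumours and all 5 WT tumours. Of all 3265 regions, single libraries of these groups called 77.9% to 80.2%, 65.5% to 85.1% and 66.7% to 89.7%.

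The 3265 regions called in all 6 libraries contained 97.3 ± 0.774% of the K27M island reads and 70.8 ± 3.01% of the WT island reads (SD, n = 3 each). They were required to be called in every K27M library, whose lists are shorter, so a higher share in K27M follows from that choice and is not tested. In them the median called length per region was 7, 5.8 and 7.2 kb in K27M and 14.4, 15.2 and 16.6 kb in WT. K27M islands filled 42.3 ± 3.20% of the merged width and WT islands 86.9 ± 4.68% (exact permutation p = 0.1). The reads themselves overlapped between groups, with a ratio of means of 0.901 (exact permutation p = 0.5). The number of islands per region, 1.57 ± 0.0481 in K27M and 1.51 ± 0.107 in WT, also overlapped (exact permutation p = 0.6). The direction of that small difference depended on the merging of nearby islands, since joining islands up to 5 kb apart gave a ratio of 0.754 in place of 1.04. Per 100 kb of called length, K27M had 13.6 ± 1.07 islands and WT 6.38 ± 0.759.

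Tested one by one with limma on log2 called length, 2401 of these regions (73.5%) were shorter in K27M and 7 (0.214%) were longer at an adjusted p under 0.05, and 857 passed in neither direction. The median log2 fold was -1.004. Since most regions were shorter, the same test relative to the median region put 947 above it and 487 below it. At 37.3 Mb per library, 1024 regions were called in all 6 libraries, of which 646 were shorter and 1 was longer. A region that passed in neither direction is not shown to have kept its length. In simulated data, all regions had 1 pooled spread and 200 of 3265 were changed. There the test found 91 of 200 changes of 1 log2 unit and 200 of 200 changes of 2 log2 units. In the real lengths the spread differs between regions and far more of them passed. The simulated counts therefore do not give the power of the test here.

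The regions that shrank most went from wide WT islands to stubs of a few kb. On chromosome 5 (mm9, 139340601 to 139440000) the called length was 1.2, 2 and 3.4 kb in K27M and 57.4, 80.8 and 98 kb in WT, with 35, 38 and 63 reads against 1552, 2032 and 2973. The groups were far apart, with a log2 fold in length of -5.26 ± 0.40 (SE, limma adjusted p = 0.000132). That fold was -4.56 and -4.43 without the WT libraries of experiments 2 and 3. On chromosome 18 (4797601 to 4858000) K27M libraries kept 2, 1.4 and 2.4 kb, where WT libraries had 30, 55.6 and 57.2 kb. Chromosome 1 (134655601 to 134740000 and 93461401 to 93518200) and chromosome 2 (28587401 to 28630000) had log2 folds in length of -4.12, -4.03 and -4.10. In the chromosome 1 region at 134655601 the K27M library of experiment 1 kept 12.2 kb while the other 2 kept 1.4 and 4.8 kb, and its fold was -4.87 without the K27M library of experiment 1 and -3.31 without that of experiment 2. The chromosome 18 fold of -4.60 was -3.80 and -3.50 without the WT libraries of experiments 2 and 3. Relative to the median region the 5 folds ran from -4.04 to -2.82. By at least 1 shared bp, K27M tumours called 4 of these 5 regions in all 6 samples, and the chromosome 18 region in none. WT tumours called the chromosome 5 region in 4 of 5 samples, the chromosome 18 region in 2 and the others in all 5. Single K27M tumours called 65.5% to 85.1% of the regions called in all 6 hindbrain libraries, and single WT tumours 66.7% to 89.7%. These 5 regions are 42.6 to 99.4 kb wide, and how much of that width the tumours called was not tested.

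Which of the 7 longer regions passed depended on the libraries included. The largest gain among those whose groups did not overlap was on chromosome 6 (mm9, 31537601 to 31566400), where K27M libraries had 17.4, 15 and 16.6 kb called and WT libraries 12.8, 6.6 and 5 kb (log2 fold 1.12 ± 0.34, SE; limma adjusted p = 0.024). It passed the threshold under 5 of 11 other settings, the fold was 1.71 without the WT library of experiment 2, and it turned to a log2 fold of -0.41 where islands up to 5 kb apart were joined, which adds neighbouring stretches to it. The next began at 44929801 on chromosome 5, 96324601 on chromosome 6, 57414001 on chromosome 15 and 108337001 on chromosome 9. They had log2 folds of 0.64 to 0.99, or 1.86 to 2.20 relative to the median region, and passed under 4 to 9 of 11 other settings. The count of longer regions ran from 3 to 14 when 1 library was left out. It was 3 without the K27M library of experiment 1, 3 without that of experiment 2 and 14 without the WT library of experiment 1. None of these 5 regions overlapped an H3K4me3 interval of any tumour. The other 2 of the 7, on chromosome 14 from 122763801 and 122797001, did, which makes 28.6% of the 7 against 73.1% of all 3265.

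**Figure D4:**
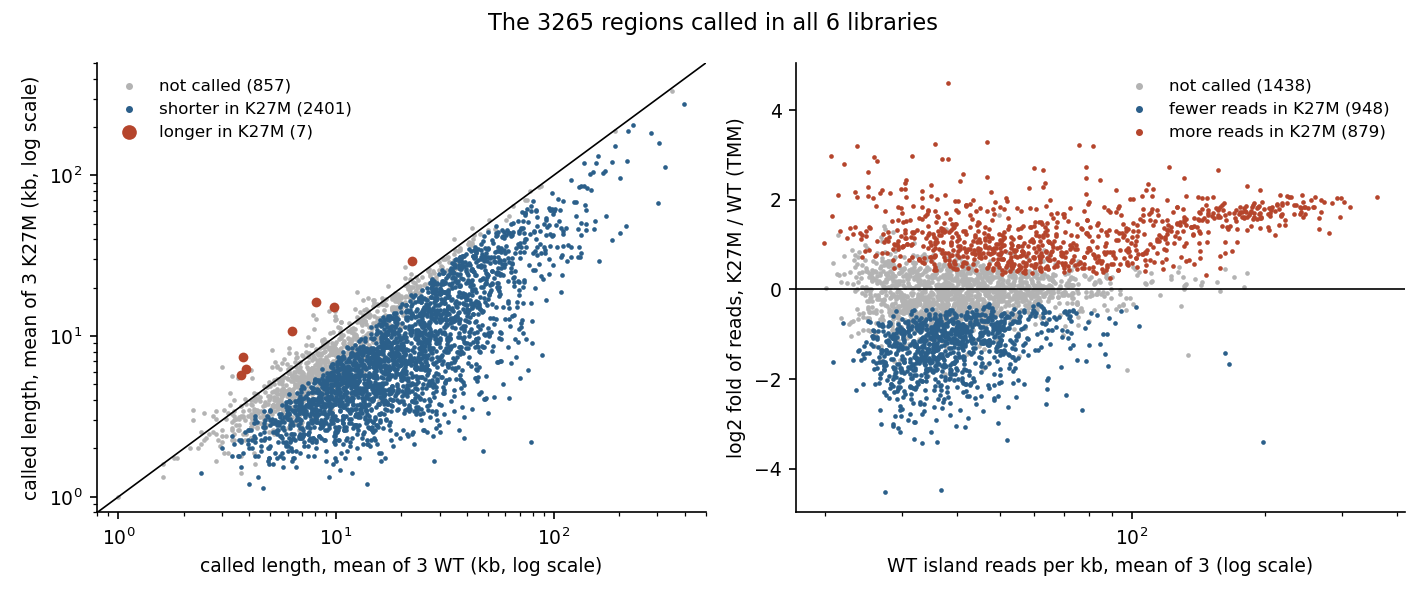
The 3265 regions called in all 6 libraries. Left, mean called length in WT against K27M (kb, log scales, line of equality), coloured by the limma call: 2401 points lie below as shorter and 7 above as longer. Right, WT reads per kb (log scale) against the log2 fold of island reads under TMM scaling: 879 regions had more reads and 948 fewer, and the highest WT densities lie above 0, apart from a chromosome 6 region at -3.40.

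Relative to the other regions, island reads were more often higher in K27M where WT was dense, and more often lower where it was sparse. With edgeR's quasi-likelihood test and TMM scaling, 879 of the 3265 regions (26.9%) had more reads in K27M, 948 (29.0%) had fewer and 1438 passed in neither direction (adjusted p under 0.05). This split depended on the scaling. Scaling to the total of the reads in these regions, without TMM, gave 340 with more and 2099 with fewer, and it moved the median log2 fold from -0.11 to -1.003. Only a change relative to the other regions can therefore be read from these reads. Cut into 4 classes of WT reads per kb, 491 of 816 regions in the densest class rose and 80 fell, and in the sparsest class 102 of 817 rose and 294 fell (TMM). The median share of WT called length that remained was 65.7% in the densest class and 39.8% in the sparsest. Since reads are counted in islands only, a shorter call holds fewer reads by construction: 942 of the 948 regions with fewer reads were also called shorter, as were 432 of the 879 with more.

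The largest gains in reads were on chromosomes 2, 8 and 14. On chromosome 2 (mm9, 147006601 to 147029000) the K27M libraries had 5408, 5084 and 5624 reads and the WT libraries 53, 410 and 1027. The groups were far apart, and the WT libraries differed widely among themselves, with 1.4, 15.8 and 20.2 kb called; the fitted change was 4.60 ± 0.83 log2 units (SE; adjusted p = 0.00312, edgeR). It was 5.45 without the WT library of experiment 3, 5.57 with experiments 1 and 2 alone and 3.71 without TMM. On chromosome 8 (48492001 to 48499000) there were 1197, 1131 and 1281 reads in K27M and 324, 192 and 222 in WT. On chromosome 14, 3 neighbouring regions (122763801 to 122794800, 122797001 to 122814200 and 122845401 to 122901600) rose together. The widest of them had 24092, 18726 and 9871 reads in K27M and 2730, 4712 and 4148 in WT, while its called length overlapped between groups, at 54.8, 54.4 and 49.6 kb against 44.4, 54.2 and 52.8 kb. In all 3 of these neighbours the K27M library of experiment 3 was the lowest of the K27M libraries and still above each WT library. These 5 regions passed under every alternative in which they could be fitted, total scaling included, where the 4 others had log2 folds of 2.30 to 2.40.

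The largest falls in reads were mostly the regions that shrank most, on chromosomes 5, 18 and 2. A different case lay on chromosome 6 (mm9, 49165001 to 49183800), where a dense WT island lost most of its reads. The K27M libraries had 185, 129 and 173 reads in 7, 6 and 6 kb, and the WT libraries 2845, 3537 and 4166 reads in 18, 16.6 and 18.6 kb (a change of -3.40 ± 0.13 log2 units, SE; adjusted p = 3.06e-05, edgeR; -4.29 without TMM). Its density fell from 158, 213 and 224 reads per kb in WT to 26.4, 21.5 and 28.8 in K27M. It was called in all 3 K27M forebrain libraries and in every tumour. The fifth region, on chromosome 4 (117023401 to 117074600), had 49, 38 and 157 reads in K27M and 1398, 1556 and 2322 in WT. Its log2 fold of -3.40 was -4.13 without the K27M library of experiment 3. It passed with the same sign under 12 of 13 other settings; joining islands up to 5 kb apart turned it to 0.66, since that adds neighbouring stretches.

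Reads per called kb, tested with edgeR and the called length as an offset, were higher in K27M in 2852 regions (87.4%) and lower in 7 (0.214%), with a median log2 fold of 0.92 under TMM. This direction rested on the scaling too. Without TMM 827 were higher and 455 lower, with a median of 0.03, and centred on the median region 935 were higher and 447 lower. The 5 largest rises held under all of these, with log2 folds of 3.16 to 3.99 under TMM and 2.248 to 3.10 without it. All 5 regions were also called in all 3 K27M forebrain libraries and in at least 4 of 5 WT tumours. All 3 forebrain libraries also called 71.1% of the 2852 regions of higher density, 71.4% of the 7 of lower density and 69.5% of the 406 others. Single WT tumours called 66.7% to 89.7% of all 3265 regions. On chromosome 9 (mm9, 91238801 to 91321400) nearly the same 75.6 to 80.8 kb was called in all 6 libraries, with 450, 375 and 234 reads per kb in K27M and 71.6, 86.7 and 86.6 in WT. On chromosome 1 (91813001 to 91908600) the K27M density was 277, 241 and 155 reads per kb and the WT density 47.5, 43.7 and 49.5, although the called length was shorter in K27M. On chromosome 16 (92687201 to 92732600) it was 239, 190 and 237 against 58.1, 43.8 and 41.2. The remaining 2 of the 5 were the chromosome 2 region at 147006601 and the widest chromosome 14 region. Among the 7 falls, the chromosome 6 region at 49165001 fell by 1.92 log2 units (SE 0.16; adjusted p = 4.66e-08, edgeR), or by 2.80 without TMM, and passed under all 14 other settings. The other 4 named falls, on chromosomes 9, 16, 17 and 2, had log2 folds of -0.63 to -0.45 and each missed the threshold or changed sign under 1 to 8 of the other settings. The count of lower regions ran from 2 to 11 when 1 library was left out: 2, 4 and 4 without the K27M libraries of experiments 1, 2 and 3, and 11 and 4 without the WT libraries of experiments 1 and 2.

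A larger share of the called length lay in H3K4me3 intervals in K27M than in WT. H3K4me3 marks promoters, and no H3K4me3 list of these neurospheres was used here. Intervals from 5 brainstem tumours of the series stood in for it (2 of Nestin-creERT2; H3f3aLSL-K27M-Tag/+ and 3 of Nestin-creERT2; H3f3aLSL-WT-Tag/+ mice, all also LSL-PDGFRαV544ins and Trp53flox/flox, with a tamoxifen-inducible Cre), merged into 40273 intervals. Of the called length, 10.5%, 11.5% and 9.81% lay in such intervals in K27M and 4.73%, 4.77% and 4.20% in WT. The groups did not overlap, and the ratio was 2.32 (exact permutation p = 0.1). In number K27M islands marked fewer of these intervals, 4057 ± 239 against 7225 ± 687 in WT (SD, n = 3 each), a ratio of 0.562. The ratio was 2.41 for the 19448 intervals with a peak in all 5 tumours and 2.08 with 6020 islands in every library. The share of islands that overlapped an interval was 40.6 ± 1.98% in K27M and 28.9 ± 0.823% in WT on the full lists, and this order turned with 6020 islands in every library, at 43.4 ± 1.07% and 49.5 ± 2.44%. Intervals of H3K27ac, a mark of active promoters and enhancers, in 11 tumours covered 7.79 ± 0.288% of the K27M and 4.30 ± 0.117% of the WT called length.

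Within the same WT islands, kept and lost parts differed. Across WT islands with any K27M call, 10.5%, 11.7% and 10.0% of the kept length lay in H3K4me3 intervals in experiments 1 to 3, and 2.54%, 2.85% and 2.49% of the lost length did. For H3K27ac the shares were 7.56 ± 0.338% of the kept and 3.91 ± 0.117% of the lost length (SD, n = 3). The kept share was the larger in all 3 experiments. The kept part made up 51.1 ± 2.50% of the length of these islands. By at least 1 bp, 81.5 ± 2.03% of the H3K4me3 intervals inside them touched it. Such a count of intervals cannot be set against a share of length. Read density was not held fixed between kept and lost parts, and the same split was not made between WT libraries.

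Calls were also described by distance from tumour H3K4me3. A summit from the widest H3K4me3 interval was taken in each of 2246 regions called in all 6 libraries. At the summit, 71.7 ± 2.67% of regions were inside an island in K27M and 90.7 ± 2.79% in WT, a ratio of 0.790. At 5 kb to the right the shares were 30.2 ± 2.53% and 65.5 ± 3.93%, and at 20 kb they were 9.04 ± 0.938% and 30.8 ± 4.05%, a ratio of 0.293. The left side ran alike, with a ratio of 0.295 at its end. The ratio was highest not at the summit but 1 kb to either side, at 0.820 and 0.812. Regions were required to be called in every K27M library, so the height of the K27M curve near the summit and the fall of the ratio with distance, toward the 0.264 of all called length, are partly set by that choice. No other anchor point was tested.

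**Figure D5:**
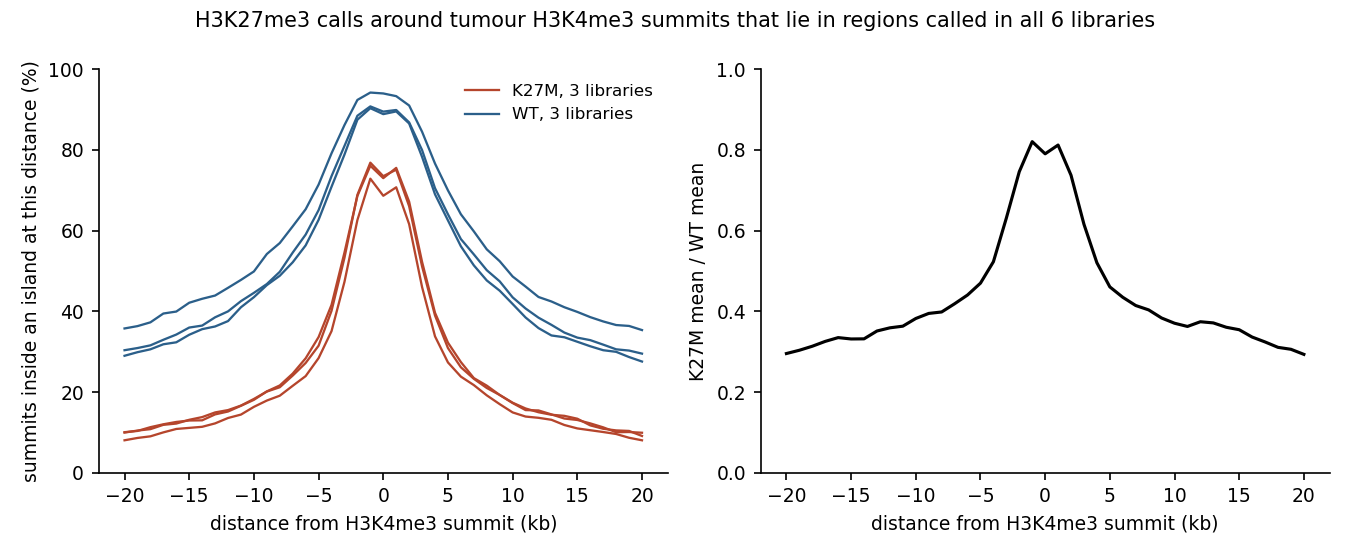
Left, share of 2246 tumour H3K4me3 summits with an H3K27me3 island at each distance in kb, 1 line per library; right, the ratio of the K27M to the WT mean. K27M falls from 71.7% at the summit to 9.04% at 20 kb and WT from 90.7% to 30.8%, and the ratio drops from 0.790 to 0.293.

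H3K4me3 also set kept regions apart from WT-only regions by count, and did so within widths, but read density was not held fixed. It was present in 73.1% of the 3265 kept regions, in 28.0% of the 3864 WT-only regions and in 28.7% of all merged regions. Among regions 20 to 50 kb wide the shares were 73.4% of 1131 kept and 31.3% of 469 WT-only regions, and among those 5 to 10 kb wide they were 71.4% of 567 and 26.99% of 1530. Of all merged regions of these widths, 57.7% and 23.8% held H3K4me3. Over all widths, regions called in all WT and 1 or 2 K27M libraries lay between WT-only and kept regions, at 41.0% and 53.9%. The 44 K27M-only regions held H3K4me3 in 14 cases (31.8%), against 28.7% of all merged regions. They held H3K27ac in 54.5% of cases, against 30.4% of all merged regions. Among kept regions, the 879 with more reads held H3K4me3 in 82.0% of cases and the 948 with fewer reads in 70.5%. These groups also differed in WT density. Median WT density (reads per kb) was 41.9 for kept and 25.03 for WT-only regions. It was 62.9 where reads rose and 37.6 where they fell. Across the 4 WT density classes of kept regions, H3K4me3 was present in 53.6% of the sparsest and 90.6% of the densest class. Whether H3K4me3 set these groups apart at a like density was not tested.

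Forebrain K27M cultures called most of the regions kept in hindbrain and few of the WT-only regions. The 3 forebrain neurosphere libraries had the same K27M genotype, experiment numbers and day, and the labels do not say whether they came from the same embryos. They called 80.2%, 77.9% and 80.2% of the kept regions and 7.92%, 6.13% and 8.02% of the WT-only regions, against 18.3%, 17.3% and 17.9% of all merged regions. The K27M-only regions were called at 13.6% to 22.7%. Kept regions were also wider than WT-only regions, at medians of 19 and 10.4 kb, and denser in WT, at 41.9 and 25.03 reads per kb. The part of width and density in these shares was not tested. The labels list no H3K27me3 library of WT forebrain cultures, so the forebrain shares have no WT counterpart. The 6 K27M brainstem tumours called 65.5% to 85.1% of the kept and 31.6% to 66.3% of the WT-only regions, and the 5 WT tumours 66.7% to 89.7% and 39.3% to 81.1%. Of all merged regions, these groups called 27.2% to 58.0% and 31.7% to 69.3%. The tumour lists were longer, covering 67.1 to 231 Mb in K27M and 77.6 to 302 Mb in WT tumours against 39.8 to 42.5 Mb in the forebrain cultures, and the part of list length in these shares was not tested.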

How the data were processed

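H3K27me3 immunoprecipitates of 6 hindbrain neurosphere cultures were compared, 3 of each genotype, grouped by the labels. Per the submitters' processing notes, tools included BWA 0.7.12, Picard, SAMtools, SICER 1.1, MACS2, bedtools 2.25.0 and R 2.14.0, and the build was mm9; roles and settings are not given in the sources used here. The deposited island lists give, per the file names, a window of 200 bp, a gap of 600 bp and a false discovery rate of 1e-05. Column 4 of the deposited lists holds whole counts of reads per island, unnormalized by the authors as far as the values show. As listed, each island stops 1 base short of a whole window, and its end was moved by 1 base. The deposited tumour peak lists gave the intervals and the summit offset, used for position only. Peaks and islands were deposited per sample.

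Members, regions and lists were chosen with earlier results of these data known. Library measures were compared by two-sided exact permutation over the 20 regroupings of 3 against 3. Regions called in all 6 libraries were tested with limma 3.58.1 on log2 called length (trended variance) and with edgeR 4.0.16 (quasi-likelihood, TMM) on counts, with and without an offset for log called length, adjusted by Benjamini-Hochberg over 3265 regions. DESeq2 1.42.0 was an alternative. The limma and edgeR tests were run on simulated data first. The labels give K27M and WT cultures a shared experiment number without saying what it marks.

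Regions named in the text were, for each test and direction, the 5 with the largest fold past an adjusted p of 0.05 whose groups did not overlap; for calls, the 5 with the most reads; for pieces, the 5 with the largest gain in mean islands; and the 5 widest kept whole. No genes are named and no sequences printed, because no mm9 annotation or genome was used here; the gene lists and cell type markers planned for annotation were therefore not applied, and the labelled cell type could not be checked against markers. Sex chromosomes were left out.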

Additional observations from a re-analysis of the deposited data

How the results depend on the processing

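The equal-length lists, the centred density, and the settings for pieces and for H3K4me3 were chosen after seeing the data. With 6020 islands in every library the K27M to WT ratio was 0.397 for called length and 0.340 for median width. It was 1.26 for islands per region. At this setting 22.5% of WT islands found in K27M were in pieces in place of 19.2%. Between WT libraries 10.0% were, in place of 13.5%. WT-only regions numbered 617, K27M-only 391 and longer regions 2. At equal called length they numbered 5, 1298 and 1, with 646 shorter. With islands of at least 2 kb the ratio for median width was 0.698, K27M-only regions numbered 27 and 17.7% of found WT islands were in pieces. Joining islands up to 5 kb apart gave 0.754 for islands per region in place of 1.04, 27 K27M-only regions and 2 of lower density, and it turned the log2 folds of 4 named regions, to -0.41, 0.66, 0.24 and 0.84, because the joined stretches are wider. Experiments 1 and 2 alone, all female, gave 115 K27M-only and 3 longer regions. Called length as a share of region width gave 21 longer regions; relative to the median region 947 were longer and 487 shorter. Without TMM, reads were higher in 340 and lower in 2099 regions and density in 827 and 455; centred density gave 935 and 447. Leaving out 1 library gave 1.02 to 1.13 islands per region as a ratio, 3966 to 6140 WT-only and 51 to 97 K27M-only regions, 3 to 14 longer regions and 2 to 11 regions of lower density. With a replicate block on the experiment number the ratio for called length was 0.265 (exact sign-flip p = 0.25, the smallest 3 pairs allow), reads were higher in 841 and lower in 948 regions, and no count moved by more than 1.5 times. Same-numbered deviations from group means correlated at 0.10, 0.06 and 0.13 for log2 reads and 0.03, 0.02 and 0.07 for log2 called length; in both, all 6 cultures correlated best with their own number, a hint from the data and not from the design. Each other setting kept the direction of the library measures and the counts within 1.5 times of those reported. For named regions under other settings, 329 values kept their call, 41 missed the threshold and 4 changed sign. Reads outside islands, total depth and the scale of the added Drosophila chromatin are unknown here, so weak marks below the caller's threshold cannot be compared.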
